A study of Mus musculus with 4 samples.

Results

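The CG sites described here are those of mouse sperm DNA that targeted bisulfite sequencing (TGBS) covered only sparsely and far from its deeply covered sites. A site was taken where both strands together held 1 to 8 reads over all 4 libraries and where every site with 10 or more reads in each library, called a deep site below, lay over 1 kb away. Of the 20364700 autosomal CG sites in the deposited tables, 4764699 (23.4%) met this rule and are called sparse sites. Read counts chose them, and the methylation of the reads was not used. Their methylated reads and all reads were also pooled in 1 Mb bins counted from position 1 of each autosome (mm9), and 2404 of the 2417 bins held 200 or more reads in every library. In TGBS, probes enrich chosen regions before bisulfite converts unmethylated cytosines, and the level of a set of CG sites is the percentage of its reads that stayed methylated. The study compared 2 fractions of sperm from wild-type male C57BL/6 mice of 11 to 12 weeks. The labels name caudal epididymis and vas deferens as the tissues of every library, whereas the study's text speaks of swim-up sperm from caudal epididymis, so a difference in tissue between the fractions cannot be told apart from the rest. Swim-up sperm are the motile sperm that rise into the medium. Histone replacement-completed sperm (HRCS) are heads of total sperm, cut from their tails by mild sonication and pelleted through Percoll. Selection for motility, selection for density and the loss of the tail therefore cannot be told apart. The libraries were sequenced 2 to a lane, and the paper does not say which ones shared a lane. A lane effect may thus also be mixed with the difference between the fractions. Each fraction had 2 libraries, and the labels do not say whether these came from separate animals, so every p-value below measures only the spread between these libraries.

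In mammals, DNA methylation sits mostly on cytosines followed by guanine, and most of the genome is methylated in sperm, with CpG islands and many gene promoters kept free of it. The methyl groups of sperm DNA are placed in the male germ line before meiosis, ahead of the replacement of histones by protamines in spermatids. Capture probes for methylation are usually aimed at CpG islands, promoters and regulatory regions, so reads that fall elsewhere sample the rest of the genome thinly.

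Swim-up replicates 1 and 2 held 78562921 and 71379227 calls, counting a read once at each CG site it spans, and HRCS replicates 1 and 2 held 89403347 and 78381101. The sparse sites took 3159289 and 3083943 of these calls in swim-up sperm (4.02% and 4.32%), against 2845954 and 2587588 in HRCS (3.18% and 3.30%), so both swim-up libraries gave them the larger share. By comparison, 10851757 autosomal sites (53.3%) had no read in any library, and the 1917405 deep sites (9.42%) held 75.7% to 77.3% of the calls of each library. Of the sparse sites, 41.8% rested on a single read and 22.5% on 2 reads, so their levels have a meaning only when many sites are pooled. The 13 bins left out held 2800 sparse sites.

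The strands set the sparse sites apart from the deep ones in a way that the rule did not use. Of the calls at deep sites, 7.56%, 7.79%, 7.64% and 7.65% lay on the plus strand in the order swim-up replicates 1 and 2 and HRCS replicates 1 and 2. At the sparse sites the plus strand held 47.9%, 48.1%, 47.9% and 48.0% in the same order. The sparse sites were thus read about equally on both strands in every library, whereas the deep sites were read mostly on 1 strand. The positions of the capture probes were not used here, so "outside capture" rests on the depth rule and on this strand balance.

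The sparse sites were highly methylated in both fractions. Pooled over all of them, the level was 87.3% and 86.7% in the swim-up libraries, against 86.0% and 86.0% in the HRCS libraries. Both HRCS libraries lay below both swim-up libraries, with means of 87.0% ± 0.409 for swim-up sperm and 86.0% ± 0.0580 for HRCS (SD, n = 2 each). The difference, HRCS minus swim-up sperm, was −0.964 percentage points, with a two-sided exact permutation p of 0.333, which is the smallest that 2 libraries against 2 can give. Counting error is small at this depth, since the 95% Wilson interval of swim-up replicate 1 ran from 87.2% to 87.3%, and intervals here cover counting error only. On each strand taken alone the difference was −0.948 points (plus) and −0.979 points (minus). Averaged over bins in place of calls, the levels were 85.6% and 85.1% in swim-up sperm, against 84.5% and 84.5% in HRCS.

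The libraries did not read the same sparse sites, and the difference became smaller where they did. A read in both fractions was present at 1654230 sparse sites (34.7%), where the levels were 86.5% and 86.0% in swim-up sperm, against 85.6% and 85.6% in HRCS, a difference of −0.639 points. The 1693627 sites read only in swim-up sperm were at 88.2% and 87.5% in its libraries, and the 1416842 sites read only in HRCS were at 86.7% and 86.5% in those. When 2 libraries were compared site by site, over the 631998 to 768773 sites with reads in both, swim-up replicate 1 stood above each of the other 3. Taken against it, swim-up replicate 2 was at −0.569 points and HRCS replicates 1 and 2 were at −0.696 and −0.613 points. Taken against swim-up replicate 2, the HRCS replicates were at −0.121 and −0.00818 points, and HRCS replicate 2 was at 0.0326 points against HRCS replicate 1. Site by site, then, swim-up replicate 2 was nearer to both HRCS libraries than to its own replicate. When libraries were compared within bins, without matching the sites, the HRCS libraries were at −0.716 and −0.714 points against swim-up replicate 2, which itself was at −0.393 points against swim-up replicate 1. The matching by site was chosen after the pooled difference had been seen. Without swim-up replicate 1 the pooled difference was −0.675 points, and without swim-up replicate 2 it was −1.25 points.

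The lower pooled level of HRCS was found on every autosome. In 19 of 19 autosomes both HRCS libraries lay below both swim-up libraries, by −1.27 points on chromosome 18 to −0.566 points on chromosome 6 (exact permutation test, p = 0.333 for each, 0.333 after adjustment over the 19). The autosomes come from the same 4 libraries and are not independent tests of the fractions, since swim-up replicate 2 also lay below swim-up replicate 1 on all 19. Site by site, the HRCS replicates were below swim-up replicate 1 on 19 and 19 autosomes, but below swim-up replicate 2 on only 16 and 9. The same rule applied to the X chromosome, which a sperm cell carries in place of the Y chromosome, gave 185672 sites with lower levels. These were at 74.5% and 73.2% in swim-up sperm, against 72.5% and 73.1% in HRCS. The X chromosome differed from the autosomal sparse sites by −12.7, −13.5, −13.6 and −12.8 points in the 4 libraries, a mean of −13.2 ± 0.442 points (SD, n = 4; two-sided exact sign-flip permutation p = 0.13, the smallest that 4 pairs allow).

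Along the autosomes the level of the sparse sites varied far more than between the fractions. Over the 2404 bins with all libraries pooled, the level ran from 46.6% to 95.4% with a median of 86.5%, and 5% of the bins lay below 71.8% and 5% above 92.6%. The SD over bins was 6.84 points, whereas binomial counting at the depth of each bin gives 0.574 points. In the 1166 bins with 1000 or more reads in each library the SD over bins was 3.76 points. A bin held a median of 1143 and 1145 reads for swim-up sperm and of 1079 and 990.0 reads for HRCS. Each library by itself showed the same spread, with SDs of 6.90 and 7.29 points in swim-up sperm and 6.93 and 6.88 points in HRCS. Whole autosomes differed little, with an SD of 1.23 points between them, and most of the spread lay between the bins of 1 chromosome (SD 6.65 points). The lowest autosome was chromosome 3, with 84.5% and 83.9% in swim-up sperm, against 83.4% and 83.2% in HRCS. The highest was chromosome 11, with 90.3% and 89.7% in swim-up sperm, against 89.2% and 88.9% in HRCS. Chromosomes 11 and 18 were without a bin under 70%, whereas chromosome 7 had 16 of them and chromosome 1 had 13.

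**Figure D1:**
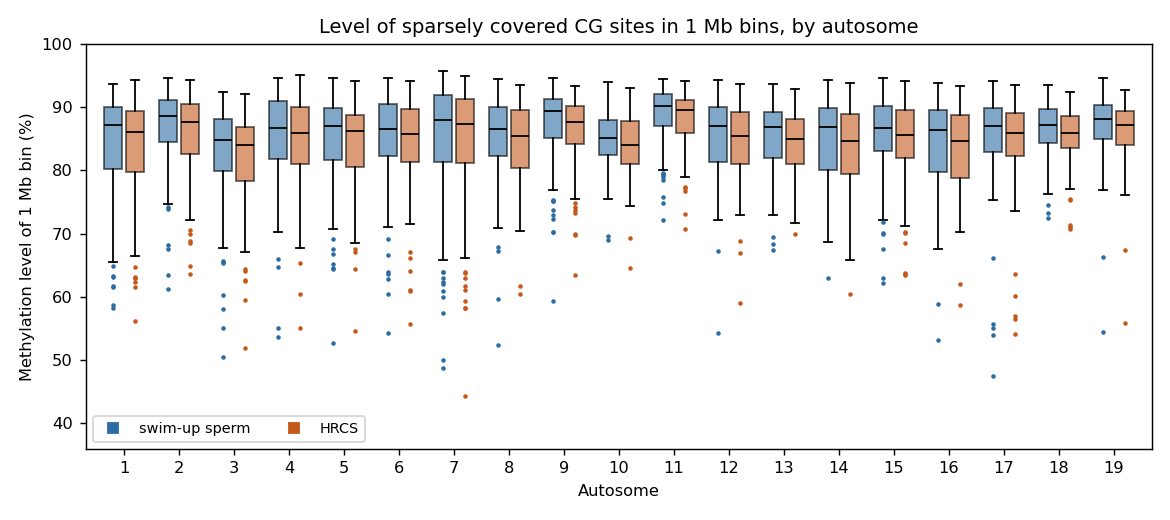
Methylation level (%, y axis, cut below 36) of the sparse CG sites in 1 Mb bins of the 19 autosomes (x axis), with swim-up sperm in blue and HRCS in orange, each pooled over its 2 libraries. Boxes hold the middle 50% of bins with the median as a line, whiskers reach to 1.5 times the box height and dots are bins beyond them. The dots lie below the boxes, down to 44.3% in HRCS, and the autosomes differ little beside the spread of their bins.

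The bins with the lowest level in swim-up sperm were about equally methylated and unmethylated. They were chosen by the pooled level of the 2 swim-up libraries, so that the HRCS values are the ones that the choice did not use. The lowest was chr17:39000001-40000000 (1583 sparse sites), at 49.6% and 45.3% in swim-up sperm, against 56.4% and 51.2% in HRCS. The next was chr7:10000001-11000000, at 50.8% and 47.2% in swim-up sperm, against 38.1% and 50.3% in HRCS, the most discordant replicates among these 5 bins. Its neighbour chr7:9000001-10000000 rested on only 245 to 271 reads per library and was at 47.2% and 52.8% in swim-up sperm, against 59.2% and 57.4% in HRCS. All 3 were low in every library and in both fractions. In chr3:43000001-44000000 the levels were 52.3% and 48.7% in swim-up sperm, against 52.1% and 51.9% in HRCS. In chr8:53000001-54000000 they were 50.1% and 54.9% in swim-up sperm, against 60.6% and 60.2% in HRCS. Among all bins ordered by HRCS from the bottom, these 5 bins held ranks 3, 1, 12, 2 and 18. In 3 of the 5 both swim-up libraries were below both HRCS libraries, which a choice by low swim-up values favours, so no test is given.

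Of the 5 bins with the highest level in swim-up sperm, 3 lay on chromosome 7, and 2 of these adjoined. The highest was chr7:146000001-147000000, at 96.6% and 94.9% in swim-up sperm, against 95.1% and 94.8% in HRCS. Beside it, chr7:145000001-146000000 was at 95.3% and 94.5% in swim-up sperm, against 93.4% and 94.0% in HRCS. Further along, chr7:152000001-153000000 was at 94.1% and 95.8% in swim-up sperm, against 93.6% and 93.0% in HRCS. The level in chr19:55000001-56000000 was 94.8% and 94.5% in swim-up sperm, against 93.3% and 92.2% in HRCS. In chr5:125000001-126000000 it was 94.9% and 94.4% in swim-up sperm, against 93.1% and 93.3% in HRCS. These 5 bins were 2 to 73 from the top among all bins ordered by HRCS. A choice by high swim-up values favours lower values and ranks in HRCS, so no test is given. Chromosome 7 thus held bins at both ends of the range.

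Most low bins were shared by the fractions, and some of them adjoined. The lowest 5% of bins by swim-up sperm (120 bins, up to 71.8%) lay on 17 autosomes in 75 separate runs, 43 of them single bins, with 18 of the bins on chromosome 7. The longest runs were 4 Mb, one of them chr1:26000001-30000000. Of the 120 bins, 100 (83.3%) were also among the lowest 5% by HRCS, and all 120 stayed at or below 75.4% there. The highest 5% by swim-up sperm lay in 93 runs, 71 of them single bins, with the most bins (16) on chromosome 2. Their longest run was 6 bins, chr5:33000001-39000000. Of these highest bins, 76 of 120 (63.3%) were also among the highest 5% by HRCS. The lowest 5% had a median of 5058 listed CG sites, against 8073 over all bins and 11302 in the highest 5%. The level of a bin in swim-up sperm was correlated with the level of the following bin in HRCS (Pearson's r = 0.611 over 2377 pairs of bins), with the bin 2 Mb on (r = 0.398) and weakly with the bin 5 Mb on (r = 0.179). At 10 and 20 Mb it was 0.0887 and 0.0897. The first 5 bins of the autosomes were at 85.4% and 84.5% in swim-up sperm, against 84.1% and 84.2% in HRCS. The last 5 were at 88.5% and 88.2% in swim-up sperm, against 87.2% and 87.3% in HRCS, above the first 5 in every library. In bins of 100 kb with 200 or more reads over all libraries (22315 bins), the range widened to 26.8% to 99.1%, and 98 bins (0.439%) lay under 50%.

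Bins with more CG sites were more methylated. In the 20% of bins with the fewest listed CG sites (1142 to 5536 per bin), the level was 77.6% and 76.3% in swim-up sperm, against 76.3% and 76.6% in HRCS. It rose through each following 20% of bins to 90.3% and 90.1% in swim-up sperm, against 89.3% and 89.1% in HRCS in bins with 11070 to 20483 CG sites. Over all 2404 bins, which share the 4 libraries, Pearson's r between the level and the number of listed CG sites was 0.606 (Spearman's rho 0.696). With the number of deep sites r was 0.481 (rho 0.690), and with the number of reads r was 0.521 (rho 0.627), so CG-poor bins also have the less precise levels. In the 20% with the fewest CG sites the fractions overlapped, whereas in the other 4 classes both HRCS libraries were below both swim-up libraries.

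The fractions ranked the bins almost alike. Pearson's r over the 2404 bins was 0.963 between the pooled fractions (Spearman's rho 0.952). Between single libraries it was 0.946 for the swim-up replicates, 0.932 for the HRCS replicates and 0.931 to 0.935 for the 4 pairs across fractions, so pairs across fractions fell within or just below the range of the replicates. The share of bins apart by over 5 points was 5.28% and 5.91% for the replicates of swim-up sperm and HRCS and 6.70% to 7.82% across fractions. Replicates of a bin lay further apart than binomial counting gives. Per bin, the chi-square of their difference averaged 2.36 for swim-up sperm and 2.27 for HRCS, where counting alone gives 1. Across fractions it was 2.78 to 3.04, and 2.34 to 2.62 once the difference of the overall levels had been taken out. A read that spans several CG sites of a bin adds several calls, so the calls of a bin are not independent. The source of the spread beyond counting was not tested.

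**Figure D2:**
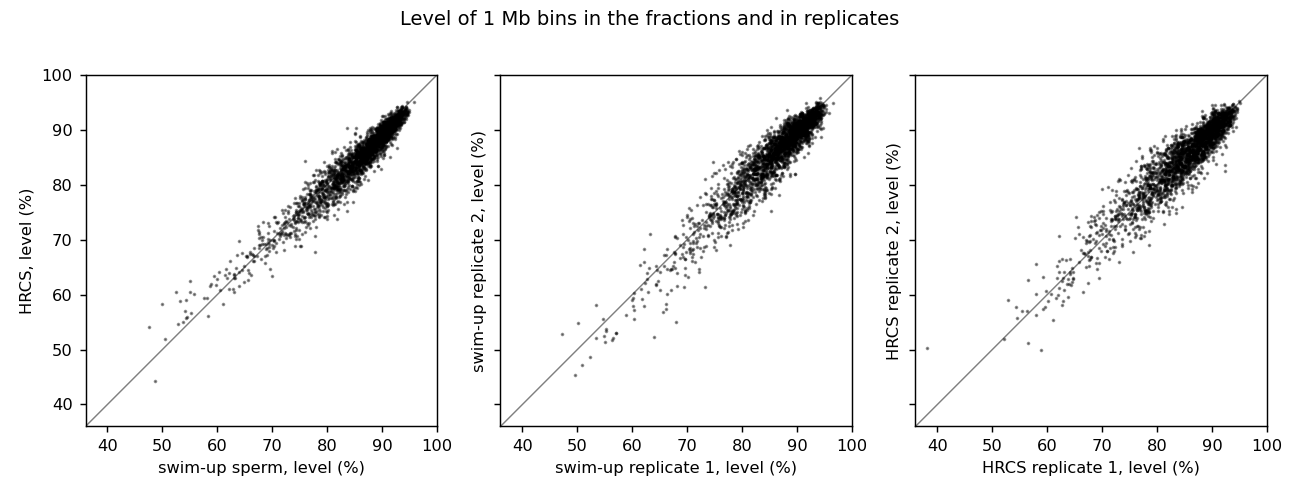
Methylation level (%) of the sparse sites in each of the 2404 bins, 1 dot per bin, for the pooled fractions (left), the 2 swim-up replicates (middle) and the 2 HRCS replicates (right), with the line of equal levels in grey. The dots follow the line in all 3 panels (r = 0.963, 0.946 and 0.932), and most dots of the left panel lie slightly below it.

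Single bins rarely differed between the fractions beyond the replicate spread. In 842 bins (35.0% of all bins) both HRCS libraries lay below both swim-up libraries, in 171 (7.11%) both lay above, and in the other 1391 they overlapped. The bins hold the same general difference as the pooled level, with a median over bins of −0.888 points. By the quasi-likelihood test of edgeR, adjusted after Benjamini and Hochberg, 7 of 2404 bins (0.291%) had an adjusted p under 0.05, all 7 lower in HRCS, and 266 had an unadjusted p under 0.05, 246 of them lower in HRCS. Relative to the mean shift of all bins, an alternative chosen after the data were seen, 0 bins passed by edgeR, with 152 at an unadjusted p under 0.05 (82 higher and 70 lower in HRCS). Without that centring limma called 4 bins, 1 higher and 3 lower in HRCS. None of the 7 bins described next therefore passed relative to the general difference.

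The largest decrease among the 7 was in chr4:71000001-72000000, at 86.0% and 81.7% in swim-up sperm, against 75.9% and 74.6% in HRCS from 666 to 816 reads per library (adjusted p = 0.0441 by edgeR). In chr12:27000001-28000000 the level was 88.3% and 91.1% in swim-up sperm, against 82.2% and 83.7% in HRCS (adjusted p = 0.0218 by edgeR). In chr4:54000001-55000000 it was 91.4% and 91.5% in swim-up sperm but 88.6% and 81.3% in HRCS, so that its difference of −6.51 points was −2.89 points without HRCS replicate 2. All these bins had both HRCS libraries below both swim-up libraries. The next were chr13:93000001-94000000, which fell by 6.14 points (88.0% and 89.2% to 82.2% and 82.7%), and chr7:85000001-86000000, which fell by 5.95 points (94.3% and 91.2% to 88.0% and 85.7%). A bin on chromosome 18 fell by 5.92 points and a bin on chromosome 8 fell by 5.29 points. Without 1 library in turn all 7 differences stayed negative. They lay between −10.7 and −6.46 points in chr4:71000001-72000000, −8.15 and −5.40 on chromosome 12 and −6.71 and −5.56 on chromosome 13. On chromosomes 7, 18 and 8 they lay between −7.51 and −4.40, −7.31 and −4.54, and −6.24 and −4.35 points. None of the 7 kept its call in more than 1 of the 4 fits that left out a library. In these fits 2, 1, 1 and 0 of the 7 were called without swim-up replicate 1, swim-up replicate 2, HRCS replicate 1 and HRCS replicate 2, and a second bin was called without swim-up replicate 2.

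Over all sparse sites, more CG sites within 100 bp went with a lower level, the opposite of the order over whole bins. Within 500 bp the level first rose and fell from 10 others on. With 0 to 4 others there it was 88.9% and 87.9% in swim-up sperm, against 87.9% and 88.0% in HRCS. With 5 to 9 it was 89.8% and 89.1% in swim-up sperm, against 88.9% and 88.9% in HRCS. Sparse sites with no other CG site within 100 bp (843221 sites) were at 89.3% and 88.5% in swim-up sperm, against 88.2% and 88.3% in HRCS. With 3 to 4 others the level was 87.3% and 86.7% in swim-up sperm, against 86.2% and 86.0% in HRCS, and with 5 to 9 others it was 82.2% and 81.6% against 81.1% and 81.0%. The 107167 sparse sites with 10 or more others, a density usual in CpG islands, were at 75.5% and 75.2% in swim-up sperm, against 75.6% and 75.3% in HRCS, the only class in which the fractions overlapped. The mix of these classes in a bin gives an SD over bins of 0.436 points, against 6.84 points observed. Even in the 20% of bins with the most CG sites, sparse sites with 10 or more others were at 73.5% and 74.5% in swim-up sperm, against 92.0% and 91.6% with no others. In the 20% with the fewest CG sites the level fell and then rose again. In swim-up sperm it was 82.4% and 80.8% with no others, 72.1% and 70.2% with 3 to 4 and 78.8% and 77.3% with 10 or more. In HRCS these levels were 80.5% and 80.7%, then 71.7% and 72.0%, then 79.7% and 78.4%.

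In the same class of CG density within 100 bp the deep sites were less methylated, and increasingly so where CG sites were dense. With no other CG site within 100 bp, deep sites were at 80.3% and 79.6% in swim-up sperm, against 80.3% and 80.1% in HRCS, a difference of deep minus sparse sites of −8.49 ± 0.500 points (SD, n = 4 libraries). With 10 or more others the deep sites were at 4.08% and 3.95% in swim-up sperm, against 4.06% and 4.01% in HRCS, and the difference was −71.4 ± 0.161 points (SD, n = 4 libraries). This class has no upper limit and held 42.9% of the deep but 2.25% of the sparse sites, so density was not matched within it. In between the difference was −13.4, −19.3, −30.9 and −53.8 points with 1, 2, 3 to 4 and 5 to 9 others. For isolated sites the size depended on the window. With density counted within 500 bp, deep minus sparse sites was −0.820 ± 0.439 points (SD, n = 4 libraries) with 0 to 4 others and −3.62 points with 5 to 9. It was −68.0 points with 25 or more, a class that also has no upper limit. Each of the 6 differences within 100 bp had the same sign in 4 of 4 libraries (two-sided exact sign-flip permutation p = 0.13 for each, the smallest possible). The general decrease of HRCS was not seen at deep sites of the same density within 100 bp. Between HRCS and swim-up sperm, the 5 classes with up to 9 others differed by 0.249, 0.368, 0.461, 0.509 and 0.426 points at deep sites. At sparse sites these classes differed by −0.612, −0.645, −0.783, −0.908 and −0.863 points. At deep sites the fractions overlapped in each of them but the one with 5 to 9 others. With density counted within 500 bp, the fractions overlapped in every class of deep sites. There HRCS minus swim-up sperm was 0.140 and 0.149 points with 0 to 4 and 5 to 9 others. The difference was −0.0156, −0.292 and −0.0558 points with 10 to 14, 15 to 24 and 25 or more. All deep sites pooled were at 28.4% and 28.5% in swim-up sperm, against 27.6% and 28.5% in HRCS, a difference of −0.384 points with the fractions overlapping. Both HRCS libraries were lower, as at the sparse sites, at sparsely read sites within 1 kb of a deep site (−1.28 points) and at sites with 9 or more reads that are not deep (−2.53 points). The lead of sparse over deep sites was smaller in HRCS in both of its libraries in each of the 5 classes with up to 9 others within 100 bp.

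**Figure D3:**
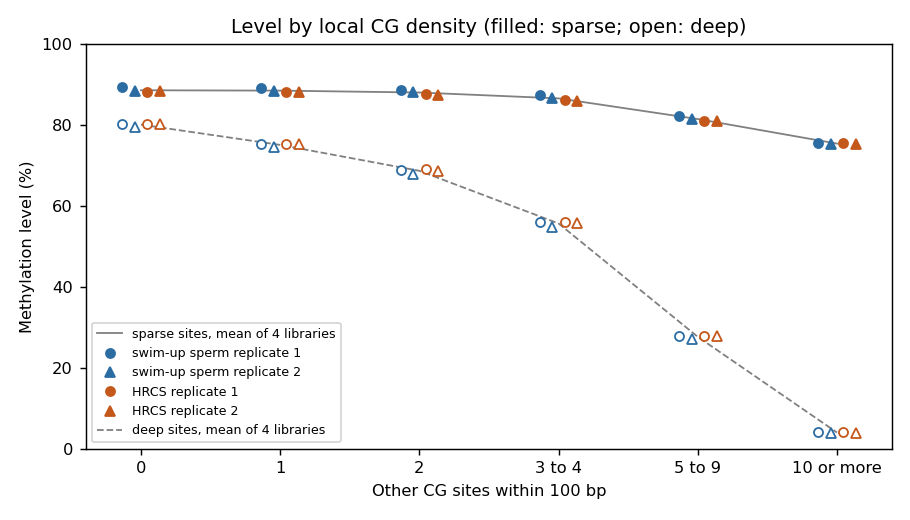
Methylation level (%, y axis from 0) of sparse sites (filled symbols) and deep sites (open symbols) by the number of other CG sites within 100 bp (x axis), with 1 symbol per library: circles for replicate 1, triangles for replicate 2, blue for swim-up sperm and orange for HRCS. Lines join the means of the 4 libraries, which at sparse sites stay above 75% and at deep sites fall to about 4% in the densest class.

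With distance from the deep sites the level of the sparse sites first rose and then fell. From 2 to 5 kb away it was 89.7% and 89.5% in swim-up sperm, against 88.5% and 88.5% in HRCS, the highest of the distance classes. Over 50 kb away (680371 sites, 14.3%) it was 79.4% and 78.3% in swim-up sperm, against 78.2% and 78.4% in HRCS, with the fractions overlapping. At the limit of the rule, sites 900 to 1000 bp from a deep site, which are no members, were at 87.0% and 86.2% in swim-up sperm, against 85.7% and 85.6% in HRCS. Just inside it, at 1000 to 1100 bp, they were at 87.9% and 87.3% in swim-up sperm, against 86.7% and 87.0% in HRCS. Sites far from a deep site were lower both in CG-poor and in CG-rich bins. In the 20% of bins with the fewest CG sites, sparse sites over 20 kb away were at 77.0% and 75.5% in swim-up sperm, against 75.6% and 76.1% in HRCS. Those at 1 to 5 kb were at 79.4% and 79.2% in swim-up sperm, against 79.1% and 78.3% in HRCS. In the 20% with the most CG sites sites over 20 kb away were at 88.3% and 88.2% in swim-up sperm, against 86.9% and 86.7% in HRCS, and those at 1 to 5 kb at 90.4% and 90.2%, against 89.3% and 89.3%.

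Sparsely read sites followed the level of the nearest deep site within 1 kb and much less beyond. Where the nearest deep site had a level of at most 25%, sparsely read sites within 1 kb of it, which the rule leaves out, were at 39.8% and 39.5% in swim-up sperm, against 37.4% and 37.8% in HRCS. At 1 to 2 kb from such a deep site the sparse sites were already at 83.0% and 82.3% in swim-up sperm, against 81.6% and 81.4% in HRCS. At 2 to 5 kb they were at 88.2% and 88.0% in swim-up sperm, against 87.1% and 87.2% in HRCS, near the 90.5% and 90.3% and the 89.3% and 89.2% beside deep sites over 75%. Beyond 5 kb the classes of the nearest deep site stayed within 6 points of each other in the mean of swim-up sperm. Lowest there was the class beside deep sites over 25 to 75%. Over 50 kb away the mean of swim-up sperm was 75.1% in that class, against 80.5% beside deep sites over 75%.

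**Figure D4:**
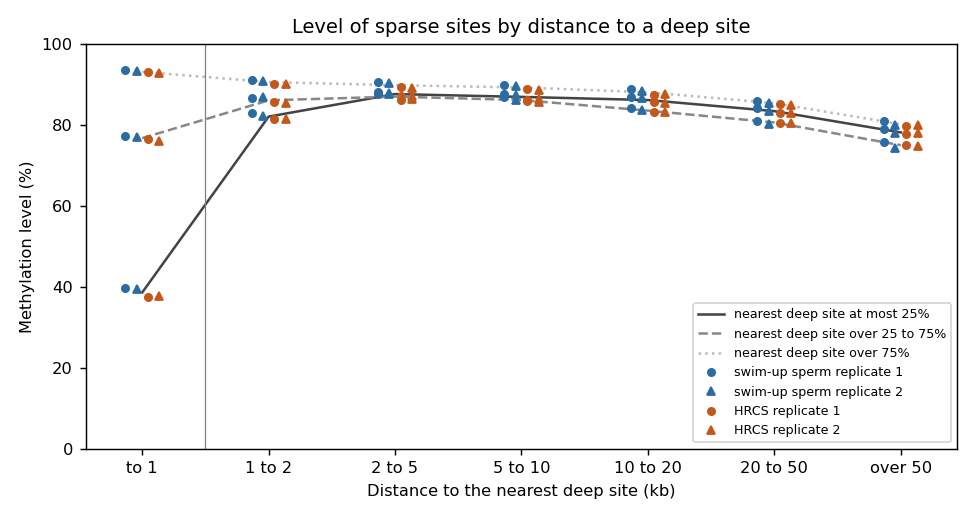
Methylation level (%, y axis from 0) of sparsely read sites by distance to the nearest deep site (kb, x axis), with 1 line for each class of that deep site's own level and 1 symbol per library (circles replicate 1, triangles replicate 2, blue swim-up sperm, orange HRCS). Sites left of the vertical line lie within 1 kb and are no members. There the symbols spread from 37.4% to 93.5%, whereas from 2 kb on they lie closer together and decline. The lines part slightly with distance, and from 2 kb on the line for deep sites over 25 to 75% is the lowest.

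From 2 reads on, sparse sites with more reads were slightly less methylated. Sites with a single read over all libraries were at 88.3% and 87.1% in swim-up sperm, against 86.7% and 86.4% in HRCS. With 2 reads the levels were 88.0% and 87.4% in swim-up sperm, against 86.8% and 86.9% in HRCS, higher than with 1 read in 3 of the 4 libraries. Those with 8 reads were at 85.3% and 85.0% in swim-up sperm, against 84.1% and 84.2% in HRCS, and sites with 9 reads, just outside the rule, were at 84.8% and 84.2% in swim-up sperm, against 83.5% and 83.5% in HRCS. Both HRCS libraries were below both swim-up libraries at each number of reads from 1 to 8, by −1.13 to −0.826 points. Of the bins nearest the minimum of 200 reads, the 5 just inside had 202 to 253 reads in their poorest library and levels of 53.8% to 83.9%. The 5 just outside had 130 to 178 reads and levels of 53.2% to 81.8%.

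At a single sparse site, reads of different libraries resembled each other as much across the fractions as between replicates. Where both of a pair of libraries held exactly 1 read at the same site, the reads had the same state at 85.3% of 259666 sites for the swim-up replicates and at 84.5% of 256826 sites for the HRCS replicates. Across fractions it was 84.7% to 85.2%. Independent reads at the levels of these libraries would have the same state at 75.5% to 76.6% of the sites. Where the first read was unmethylated, the second was unmethylated at 45.8% to 47.5% of the sites, against 8.92% to 9.08% where the first was methylated. The phi coefficient was 0.377 and 0.368 between replicates and 0.366 to 0.373 across fractions. Unmethylated reads thus recurred at the same sites in libraries of either fraction, though not more so than at neighbouring sites, as the next values show.

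The likeness of reads fell off within 2 kb. Between reads of different libraries at sparse sites 1 to 9 bp apart, the correlation of the methylated state was 0.458 for replicates and 0.454 across fractions, as means over pairs of libraries. At the same site it was 0.403 and 0.399, below the 0.418 and 0.419 at 100 to 199 bp. From 200 to under 500 bp it was 0.370 and 0.371, from 500 to under 1000 bp 0.237 and 0.236, and from 1 to under 2 kb 0.0796 and 0.0799. From 20 to 50 kb it was 0.0329 and 0.0328. These values are over pairs of sites up to 160 sparse sites apart, which share libraries and reads, and are a description. At every separation the ranges of the replicate pairs and of the pairs across fractions overlapped.

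**Figure D5:**
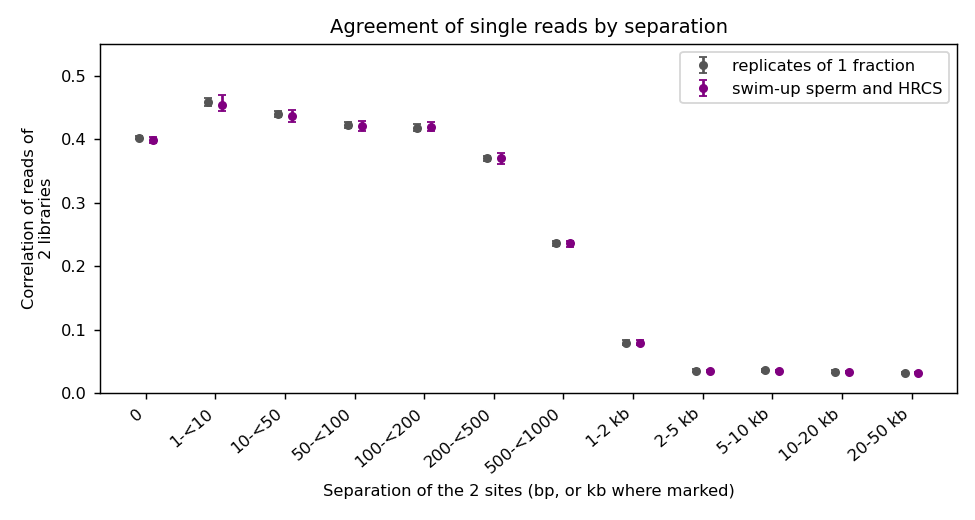
Correlation of the methylated state of reads from 2 different libraries (y axis, from 0) by the separation of their sparse sites (x axis, bp or kb), in grey for replicates of 1 fraction and in purple for pairs across fractions. Dots are means over pairs of libraries and bars run from the lowest to the highest pair; the colours overlap in every class, and the means for replicates are 0.403 at the same site, 0.458 at 1 to 9 bp and 0.0329 at the longest separation.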

How the data were processed

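TGBS libraries of swim-up sperm and HRCS (2 each) were analysed. The authors aligned single reads to mm9 using Bmap, and their deposited tables give raw read counts (methylated and total) for each CG site and strand, without a header. Which of both count columns holds the methylated reads was inferred from the smaller one never being above the larger. Unmethylated reads would meet that too, but with this reading deep sites with 10 or more other CG sites within 100 bp were at 3.95% to 4.08% and sparse sites at 86.0% to 87.3%, the order known for CpG islands and the rest of sperm DNA. Removal of duplicate reads is not given in the sources used here. Both strands were added, the sparse sites were chosen by depth and distance to deep sites, and levels are methylated calls over all calls. The sites, bins and comparisons were chosen with earlier results of these data known.

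Levels were compared with exact permutation tests over libraries. Methylated and unmethylated calls of each bin were compared by the quasi-likelihood test of edgeR, with a term per library and 1 dispersion without a trend, and adjusted over 2404 bins with a threshold of 0.05. The code of this test was tested on simulated bins. Their spread between libraries was not estimated from these replicates, so they do not give the error rate of the test here. Site by site, differences were weighted by the product over the sum of the reads of both libraries. The bins named are the 5 lowest and 5 highest by swim-up sperm and up to 5 largest increases and decreases among called bins whose libraries do not overlap, and the other called bins are given by chromosome. Versions were edgeR 4.0.16, limma 3.58.1, R 4.3.3, scipy 1.17.1, numpy 2.4.6, pandas 2.3.3, matplotlib 3.10.9 and Python 3.11.15. Alternatives were other limits of reads, distance, bin size and bin minimum, single strands, plain means of site levels, other tests and leaving out each library. Intervals are Wilson intervals at 95% and cover counting error only. The reference annotation at hand is of another build, so genes, sequences, probe regions and H3 peaks were not analysed here.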

Additional observations from a re-analysis of the deposited data

Results flagged for a closer look

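On the Y chromosome, the sites that meet the same rule had the fractions in the other order from the autosomal sparse sites. They were at 65.7% and 62.5% in swim-up sperm, against 68.1% and 68.0% in HRCS, so both HRCS libraries were higher, by 3.92 points in the mean, whereas they were lower on every autosome and on the X chromosome. The 3138 sites held 1577 to 1785 calls per library, and the difference between the chromosomes was not tested.

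Deep sites with 5 to 9 other CG sites within 100 bp formed the only one of the 6 density classes, of sparse or of deep sites, in which both HRCS libraries were higher. They were at 27.8% and 27.1% in swim-up sperm, against 27.9% and 27.9% in HRCS, a difference of 0.426 points, whereas the sparse sites of that density differed by −0.863 points with both HRCS libraries lower. The difference between sparse and deep sites in this respect was not tested.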

How the results depend on the processing

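The median bin of swim-up replicate 1 has a 95% Wilson interval of 85.2% to 89.1%, so a difference of a few points in a single bin is not resolved at this depth, and replicates vary by more than counting. The alternatives "sites with a read in both fractions" and "relative to the mean shift" were chosen after the data were seen. The pooled difference stayed negative and 19 autosomes had a lower mean in HRCS under the other limits of reads and distance, on each strand, with plain means, at sites read in both fractions and without each library. Site by site between single libraries, as the report gives, fewer autosomes were lower against swim-up replicate 2. Without 1 library in turn, the difference lay between −1.25 and −0.675 points, the swim-up level between 86.7% and 87.3%, the HRCS level between 86.0% and 86.0%, the SD over bins between 6.75 and 6.90 points and the r of the fractions between 0.945 and 0.951.

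The pooled level, in the order swim-up sperm and HRCS, was 87.5% and 86.5% with summed reads of 1 to 4, 87.7% and 86.7% with 1 to 2, and 86.5% and 85.5% with 1 to 12. It was 85.4% and 84.6% over 5 kb from deep sites, 83.9% and 83.1% over 10 kb, and 86.2% and 85.6% at sites read in both fractions. As a plain mean of site levels HRCS was at 86.1%. The SD over bins, 6.84 points, was 6.61 with 1 to 4 reads, 6.44 with 1 to 2, 7.07 over 5 kb, 7.29 over 10 kb, 7.31 in bins of 500 kb, 6.30 in bins of 2 Mb, 6.13 in the 1410 bins of 100 kb with 200 or more reads in each library (9.26 in the 22315 with 200 or more over all libraries) and 7.19 at sites read in both fractions. In the 1166 bins with 1000 or more reads in each library it was 3.76. The r of the fractions, 0.963, was 0.954, 0.930 and 0.966 with 1 to 4, 1 to 2 and 1 to 12 reads, 0.954 and 0.943 over 5 and 10 kb, and 0.941, 0.977 and 0.889 in bins of 500 kb, 2 Mb and 100 kb. It was 0.957 and 0.940 with a minimum of 1 and of 1000 reads per bin, 0.934 and 0.933 on the minus and plus strand, and 0.970 from plain means. The causes of these moves were not tested.

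The number of bins past the adjusted p, 7 by edgeR, was 0 with summed reads of 1 to 4 or 1 to 2, 0 over 5 or 10 kb, 0 in bins of 500 or 100 kb, 0 on either strand, 0 at sites read in both fractions and 0 relative to the mean shift. Unadjusted p under 0.05 by edgeR was then held by 76 of 2384 bins at sites read in both fractions. It was held by 86 of 1410 bins of 100 kb and 384 of 4722 bins of 500 kb. In the others of these settings it was held by 152 to 244 bins, with 2202 to 2404 tested. For the counts that follow, 1218 bins were tested at 2 Mb and 1166 with 1000 or more reads, against 2404 in the main fit. The number past the adjusted p was 9 with summed reads of 1 to 12, 7 with a minimum of 1 read per bin, 6 with a trended dispersion, 3 in bins of 2 Mb, 4 with 1000 or more reads, 4 by limma (3 of them among the 7), and between 0 and 2 without 1 library, where the lone library of a fraction is assumed to vary like the other. Fisher's exact test on pooled calls, which leaves out the spread between replicates, gave 375. With a replicate block it was 4, all of them among the 7. Whether same-numbered libraries were handled together is not given in the sources used here. Deviations of same-numbered libraries from their fraction had a correlation of −0.0339 over bins. That value cannot decide on a pairing, since an effect equal in all bins drops out of it. Deep minus sparse sites kept its sign over 5 kb and with density counted within 500 bp, but its lowest class went from −8.49 to −0.820 points with the latter, and the agreement of single reads on the minus strand moved by less than its spread over pairs.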
